A study of Mus musculus with 12 samples.

Results

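Collagen genes were examined in bulk RNA-Seq of W-20 cells, a murine bone marrow stromal cell (BMSC) line. They were taken as the protein-coding genes whose symbol is Col, a collagen type number, the letter a and a chain number, which held for 44 of the 56980 genes in the count table. Genes of collagen-like proteins with other names, such as *Colq*, were not included. Of the 44 genes, 38 had at least 10 counts summed over the 12 libraries and were tested, and 26 reached a mean of 1 CPM (counts relative to the scaled size of each library) over the libraries. The 6 genes that were not tested, *Col9a1*, *Col13a1*, *Col19a1*, *Col24a1*, *Col25a1* and *Col26a1*, had between 0 and 8 counts in all.

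The 12 libraries formed 4 groups of 3. WT cells received vehicle (PBS) or 50 nM parathyroid hormone (PTH) for 2 hours, and cells titled Y428F received the same 2 exposures. Y428F denotes YAP, a transcriptional coactivator of the Hippo pathway, with a tyrosine changed to phenylalanine. The study describes stable W-20 lines that carry an introduced YAP with this change, alone or together with a serine-to-alanine change, and its account of the sequencing names the line with both changes in some places and the tyrosine change alone in others, as the titles do. The genotype entry of all 12 libraries reads WT, so the groups rest on the titles. No library of cells with an introduced unmutated YAP was analysed here, so the mutation and the making of the line cannot be told apart in any difference between the lines. Nothing in the labels says that the 3 libraries of a group came from separate cultures, and the p-values then measure the spread between these libraries, which may be technical. Library totals ran from 17127897 to 19057319 counts, with a median of 17740980.

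Collagens are proteins of 3 chains wound into a triple helix, and each gene encodes 1 chain. Fibrillar collagens (types I, II, III, V, XI, XXIV and XXVII) form the banded fibers of bone, skin, tendon and cartilage. Type IV collagen forms the sheet-like network of basement membranes, type VI forms beaded filaments around cells, and fibril-associated collagens with interrupted helices (FACIT) coat the surface of fibers. In bone the bulk of the organic matrix is type I collagen, made by osteoblasts and their stromal precursors, with types III and V as minor partners in the same fibers.

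The labelled cell type was first compared with its markers. Of 12 bone marrow stroma markers, 10 reached 1 CPM in at least 1 group, among them *Pdgfra*, *Pdgfrb*, *Prrx1*, *Cxcl12* and *Eng*, and the most abundant was *Vim*. *Thy1* had no count in any library, and *Nt5e* had 5 counts in all. *Lepr* was at 0.143 CPM in WT cells with vehicle and reached 1 CPM only in Y428F cells with vehicle, at 1.03 CPM on average. Markers of a mature osteoblast were close to absent in part, with 2 counts of *Bglap* (osteocalcin), 1 count of *Ibsp* (bone sialoprotein) and 33 counts of *Alpl* (alkaline phosphatase) over the 12 libraries, whereas *Runx2*, an early osteoblast transcription factor, was at 90.2 CPM in WT cells with vehicle. Of the receptor gene *Pth1r*, the highest value in a library was 0.561 CPM. *Yap1* was at 181 to 194 CPM in WT cells with vehicle and 141 to 150 CPM in Y428F cells with vehicle, and these counts do not check the introduced form, whose coding sequence may differ from the mouse gene.

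Collagen transcripts made up 2.77% ± 0.203 (SD, n = 3) of all counts in WT cells with vehicle and 2.66% ± 0.156 in WT cells with PTH. The share was 1.95% ± 0.0731 in Y428F cells with vehicle and 1.62% ± 0.187 in Y428F cells with PTH. Every WT library held a larger share than every Y428F library, since the lowest WT library was at 2.48% and the highest Y428F library at 2.03%. In Y428F cells the 3 PTH libraries, at 1.42%, 1.78% and 1.67%, lay below the 3 vehicle libraries, at 2.03%, 1.90% and 1.91%. In WT cells the libraries of the 2 exposures overlapped. No test was run on this sum. In bulk RNA a lower value in each cell cannot be told apart from fewer cells that express the gene.

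**Figure D1:**
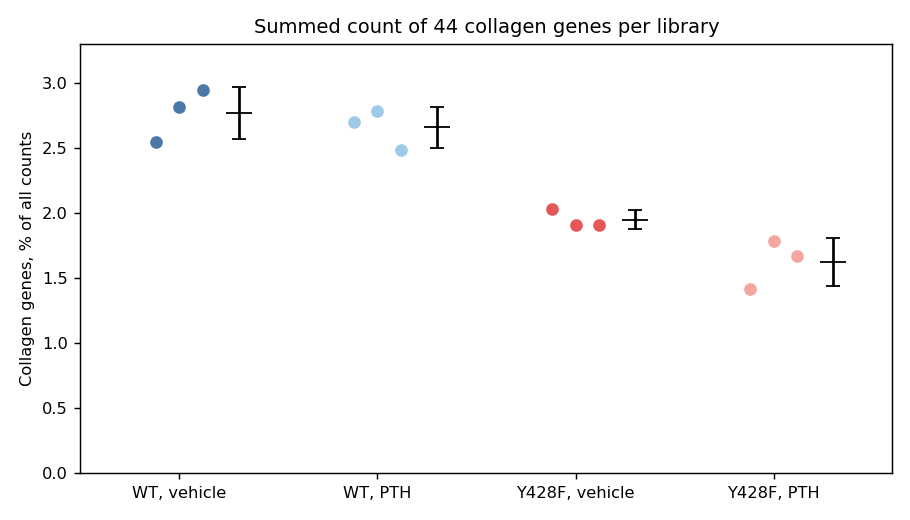
Share of all counts held by the 44 collagen genes, in percent (y axis), in each of the 12 libraries (points) by group (x axis), with the group mean and SD beside them (n = 3). The 6 WT libraries lie between 2.48% and 2.95% and the 6 Y428F libraries between 1.42% and 2.03%.

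The 2 type I collagen genes dominated this output. Levels of different genes were compared as CPM per kb of transcript, using the length of the Ensembl canonical transcript. In WT cells with vehicle, *Col1a2* stood at 2394 ± 174 CPM per kb and *Col1a1* at 1189 ± 121, followed by *Col6a1* at 227 ± 25.7, *Col5a2* at 199.9 ± 11.6 and *Col3a1* at 150.3 ± 26.97. Together the type I genes held 74.4% ± 0.668 of the summed level per kb in WT cells with vehicle and 73.4% in Y428F cells with vehicle. The libraries of *Col6a1* and *Col5a2* overlapped in WT cells, as did those of *Col3a1* and *Col6a2* and those of *Col6a2* and *Col5a1*, so these neighbors in the order were not separated beyond their spread. In Y428F cells with vehicle the order changed below the type I genes. *Col5a2* took place 3 at 187 ± 4.40 CPM per kb, *Col4a1* stood at place 5, against 9 in WT cells, at 116 ± 3.67, and *Col3a1* stood at place 10, against 5 in WT cells, at 36.5 ± 1.08.

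**Figure D2:**
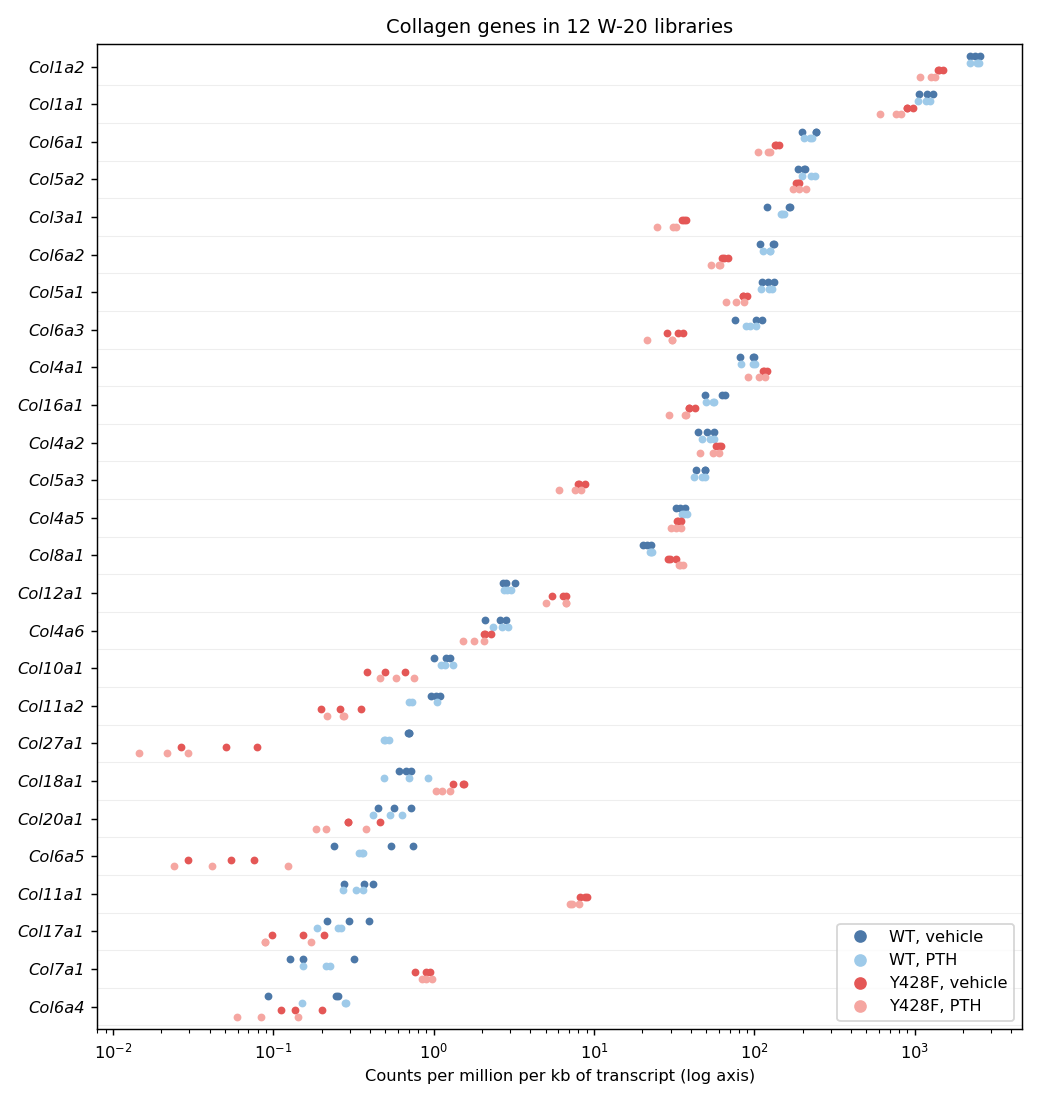
Level of the 26 collagen genes averaging 1 CPM or more, in CPM per kb of transcript on a log axis, with 1 point for each of the 12 libraries and color for the group. *Col1a2* and *Col1a1* lie above all other genes in both lines, and the points of the lines are farthest apart for *Col11a1*, *Col27a1*, *Col6a5* and *Col5a3*.

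The 250 bases upstream of the canonical transcript start are shown for 5 fibrillar genes of the comparison described next, read from GRCm39 with GENCODE vM39 and written 5′ to 3′ on the strand of the gene. They are the abundant gene *Col1a1*, the neighbors *Col3a1* and *Col5a2*, of which *Col3a1* differed between the lines and *Col5a2* did not pass the test, and the 2 minor fibrillar chains with large and opposite differences between the lines, *Col5a3* and *Col11a1*. Capitals mark the letters CCAAT (bound by NF-Y), GGAATG (the core bound by TEAD factors, the partners of YAP) and GGGCGG (a GC box), each searched on both strands, and the matches printed do not overlap. The windows lie at chr11:94826800-94827049 (+ strand) for *Col1a1*, chr1:45350448-45350697 (+) for *Col3a1*, chr1:45542443-45542692 (-) for *Col5a2*, chr9:20726419-20726668 (-) for *Col5a3* and chr3:113823884-113824133 (+) for *Col11a1*, and none of them holds an annotated exon.
Col1a1: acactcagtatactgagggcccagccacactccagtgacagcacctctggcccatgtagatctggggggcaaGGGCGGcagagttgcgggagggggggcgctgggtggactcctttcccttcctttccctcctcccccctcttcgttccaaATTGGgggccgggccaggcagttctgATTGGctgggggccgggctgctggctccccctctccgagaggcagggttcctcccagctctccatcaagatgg
Col3a1: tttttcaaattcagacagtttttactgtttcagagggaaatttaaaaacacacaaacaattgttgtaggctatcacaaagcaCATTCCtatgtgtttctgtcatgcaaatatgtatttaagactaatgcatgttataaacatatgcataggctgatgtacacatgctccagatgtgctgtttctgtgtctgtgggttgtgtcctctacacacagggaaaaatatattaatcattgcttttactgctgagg
Col5a2: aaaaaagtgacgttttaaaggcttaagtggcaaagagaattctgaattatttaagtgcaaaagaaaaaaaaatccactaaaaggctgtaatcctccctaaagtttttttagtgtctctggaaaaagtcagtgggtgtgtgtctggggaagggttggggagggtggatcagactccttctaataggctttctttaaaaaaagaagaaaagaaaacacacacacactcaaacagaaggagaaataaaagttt
Col5a3: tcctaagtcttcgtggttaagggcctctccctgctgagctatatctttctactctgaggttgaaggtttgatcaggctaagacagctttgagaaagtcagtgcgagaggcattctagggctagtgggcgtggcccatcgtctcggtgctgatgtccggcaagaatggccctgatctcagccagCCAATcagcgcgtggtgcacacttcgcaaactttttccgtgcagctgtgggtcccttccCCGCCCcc
Col11a1: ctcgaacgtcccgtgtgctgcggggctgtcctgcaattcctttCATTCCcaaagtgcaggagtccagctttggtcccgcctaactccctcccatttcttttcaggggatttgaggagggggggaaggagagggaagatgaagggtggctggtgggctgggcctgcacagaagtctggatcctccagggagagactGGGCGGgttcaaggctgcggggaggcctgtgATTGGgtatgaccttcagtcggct
The *Col1a1* window held CCAAT on the reverse strand and a GC box, *Col5a3* and *Col11a1* held CCAAT and a GC box, *Col3a1* and *Col11a1* held GGAATG, and the *Col5a2* window held none of the 3 letter strings. CCAAT was present in 34.1% of the 44 collagen windows and in 36.5% of the windows of all 21631 protein-coding genes. GGAATG was present in 13.6% and 12.1%, and GGGCGG in 47.7% and 36.4%. A match is a string of letters and was not examined for binding.

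The first comparison asked how the lines differ without PTH. With vehicle, 9 of the 38 tested collagen genes were higher in Y428F cells and 14 were lower at an adjusted p under 0.05 (edgeR), against 22.4% and 22.7% of all 17691 genes tested in the same direction and 45.1% in either. In the set that averaged 1 CPM or more, 7 of 26 collagen genes were higher and 14 were lower, against 28.7% and 30.9% of all such genes. The median log2 difference of the 38 genes was -0.07, against 0.01 for all genes tested. That of the 26 genes was -0.52, and no median of all genes averaging 1 CPM or more is given beside it. Of the genes with at least 1 CPM, 7 of 9 fibrillar genes and 4 of 5 beaded filament genes were lower, whereas *Col11a1*, *Col7a1*, *Col18a1*, *Col12a1*, *Col8a1* and the main type IV pair were higher.

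**Figure D3:**
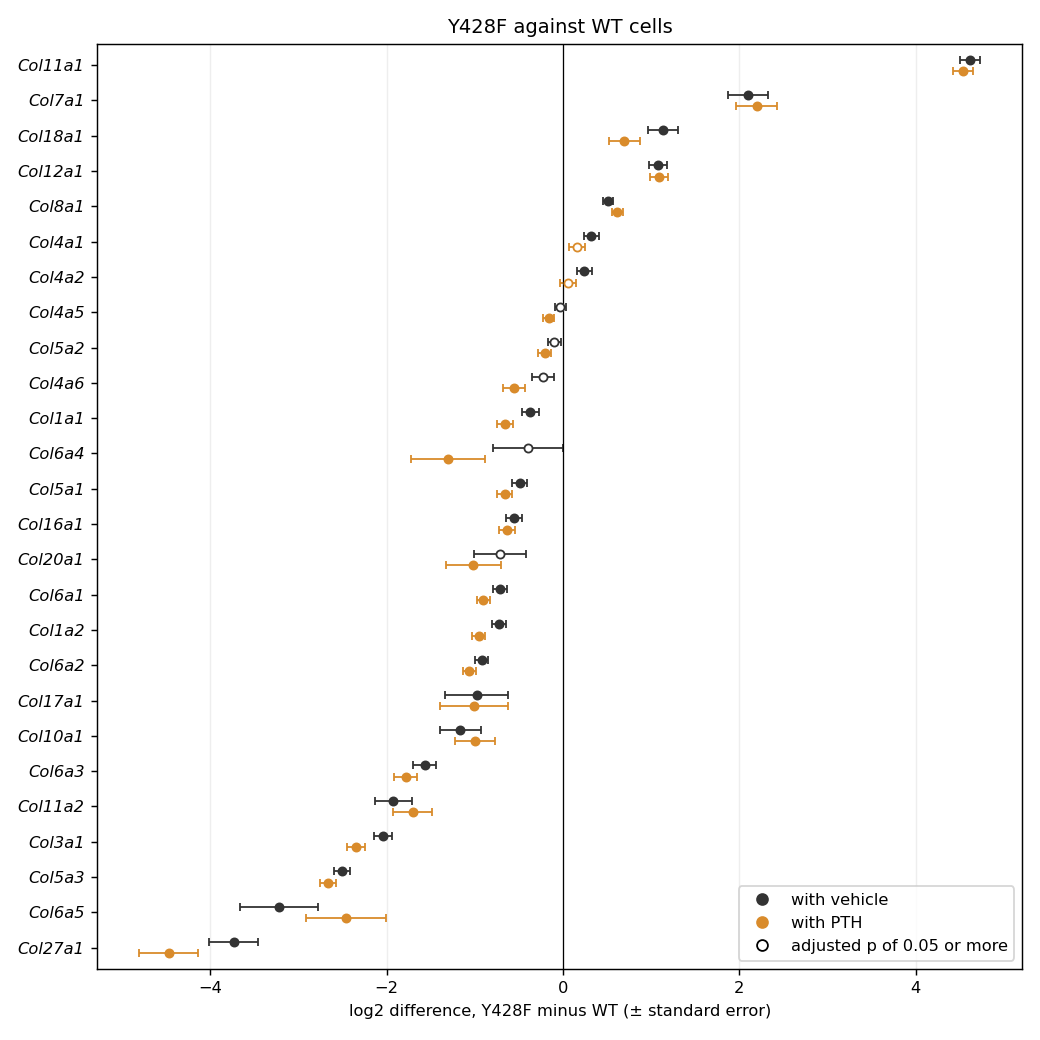
Log2 difference between Y428F and WT cells (x axis, ± standard error from edgeR, 3 libraries in each group) for the 26 collagen genes averaging 1 CPM or more, with vehicle (black) and with PTH (orange), with open points where the adjusted p was 0.05 or more. The vehicle values run from -3.74 for *Col27a1* to 4.62 for *Col11a1*.

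Both type I chains were lower in Y428F cells, *Col1a2* by more than *Col1a1*. *Col1a1* (ENSMUSG00000001506.11, chr11:94827050-94843868, + strand), the alpha-1 chain, was at 6331, 7054 and 7762 CPM in WT cells with vehicle and at 5784, 5300 and 5282 CPM in Y428F cells with vehicle. The 2 groups did not overlap, and the log2 difference was -0.37 ± 0.09 (SE; adjusted p = 0.00245). *Col1a2* (ENSMUSG00000029661.17, chr6:4504814-4541555, + strand), the alpha-2 chain, was at 11910, 12810 and 13770 CPM in WT cells with vehicle and at 8068, 7534 and 7632 CPM in Y428F cells with vehicle. This is a difference of -0.73 ± 0.08 (adjusted p = 1.06e-07), again with no overlap. The type I helix holds 2 alpha-1 chains to 1 alpha-2 chain, a count of protein chains that a transcript ratio does not measure. The ratio of *Col1a1* to *Col1a2* transcripts per length was 0.496 ± 0.0146 in WT cells with vehicle and 0.636 in Y428F cells with vehicle. With chromosome medians subtracted, the line differences of the 2 genes were nearly equal, as given at the end. The highest WT library, across both exposures, was at 0.509 and the lowest Y428F library at 0.565.

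*Col3a1* (ENSMUSG00000026043.19, chr1:45350698-45395840, + strand), whose type III chains form homotrimers within type I fibers, fell 4.12-fold. It was at 663, 925 and 921 CPM in WT cells with vehicle and at 209, 202 and 198 CPM in the Y428F vehicle group, a log2 difference of -2.04 ± 0.10 (adjusted p = 1.76e-12). Its neighbor *Col5a2*, on the opposite strand with 16713 bases and no coding gene between the 2 gene ends, was at 1510 ± 87.6 CPM in WT cells and 1408 ± 33.3 CPM in Y428F cells. The difference for *Col5a2* was -0.10 ± 0.07, with a 95% interval from -0.25 to 0.05 (adjusted p = 0.293).

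Of the 5 type V and XI genes, whose chains combine with one another in the core of fibers and set their diameter, 3 were lower, *Col11a1* was higher and *Col5a2* did not pass the test, where 30.9% of all genes averaging 1 CPM or more were lower and 28.7% higher. *Col11a1* (ENSMUSG00000027966.21, chr3:113824134-114014367, + strand), best known from cartilage, was at 2.12, 2.84 and 3.22 CPM in WT cells with vehicle and at 63.5, 68.1 and 69.7 CPM in Y428F cells with vehicle. It was thus 24.6-fold higher, a log2 difference of 4.62 ± 0.11 (adjusted p = 3.06e-17). *Col5a3* (ENSMUSG00000004098.8, chr9:20681337-20726418, - strand) fell from 267, 304 and 304 CPM to 54.1, 50.1 and 49.4 CPM, a difference of -2.51 ± 0.09 (adjusted p = 9.63e-15). *Col11a2* (ENSMUSG00000024330.18, chr17:34258108-34285664, + strand) fell from 6.56, 6.14 and 6.92 CPM to 1.64, 2.22 and 1.26 CPM, a difference of -1.93 ± 0.21 (adjusted p = 1.63e-07). None of these 3 genes had overlapping libraries between the lines, where 27.5% of all genes tested were higher without overlap and 26.3% lower. The 3 were named for their large differences, so the lack of overlap adds no support.

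The main type V chain gene *Col5a1* differed by -0.49 ± 0.08 (adjusted p = 3.56e-05). As shares of the summed type V and XI level per kb, *Col5a3* held 12.7% ± 0.907 in WT cells with vehicle and 2.85% in Y428F cells with vehicle, *Col11a1* held 0.0950% and 2.99%, and *Col5a2* held 54.0% and 64.2%. The level of *Col5a2* itself was 199.9 and 186.5 CPM per kb, so its share rose while its level did not. The remaining fibrillar gene of the 9 with at least 1 CPM, *Col27a1* (ENSMUSG00000045672.16, chr4:63132241-63253228, + strand), a chain of growth cartilage, was at 5.24, 5.35 and 5.31 CPM in WT cells with vehicle and at 0.383, 0.202 and 0.601 CPM in Y428F cells with vehicle. The difference was -3.74 ± 0.28 (adjusted p = 6.26e-10), and the Y428F values rest on 4 to 11 counts in a library. *Col2a1*, the main fibrillar chain of cartilage, had 10 counts over all 12 libraries, so the *Col11a1* increase was measured in cells with next to no *Col2a1*.

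Of the 5 type VI genes with at least 1 CPM, 4 were lower in Y428F cells, against 30.9% of all genes averaging 1 CPM or more. *Col6a1*, *Col6a2* and *Col6a3* encode the 3 chains of the classic type VI monomer, in which *Col6a3* supplies the longest chain. *Col6a3* (ENSMUSG00000048126.17, chr1:90693645-90771780, - strand) was at 688, 939 and 1017 CPM in WT cells with vehicle and at 326, 306 and 259.8 CPM in Y428F cells with vehicle. Its difference was -1.57 ± 0.13 (adjusted p = 3.35e-09), with no overlap. *Col6a1* and *Col6a2*, on the same strand of chromosome 10 with 83890 bases between them, differed by -0.72 ± 0.08 and -0.92 ± 0.07 (adjusted p = 1.60e-07 and 1.89e-09). *Col6a5* (ENSMUSG00000091345.10, chr9:105733270-105837858, - strand), an alternative to the *Col6a3* chain, was at 2.22, 6.88 and 5.04 CPM in WT cells with vehicle and at 0.274, 0.506 and 0.710 CPM in the Y428F vehicle group, a difference of -3.22 ± 0.44 (adjusted p = 4.00e-06). *Col6a4* had a difference of -0.40 ± 0.40 (adjusted p = 0.448).

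The basement membrane genes went the other way or did not pass the test. *Col4a1* and *Col4a2*, the ubiquitous type IV chains, were higher by 0.32 ± 0.09 and 0.24 ± 0.09 (adjusted p = 0.0053 and 0.0316). *Col4a1* was at 535, 651 and 657 CPM in WT cells with vehicle and at 794, 763 and 747 CPM in Y428F cells with vehicle, without overlap. Without WT vehicle replicate 1 the *Col4a2* difference was 0.16 (adjusted p = 0.154). The starts of their canonical transcripts lie 316 bases apart on opposite strands of chromosome 8, and 311 exon bases are shared in the annotation, so reads in that stretch can be assigned to one gene or the other only with strand. The pair *Col4a5* and *Col4a6*, with 1281 bases between their starts on the X chromosome, had differences of -0.03 ± 0.06 and -0.23 ± 0.12 (adjusted p = 0.724 and 0.144). Without WT vehicle replicate 1, *Col4a6* was called lower at -0.35 (adjusted p = 0.0203). *Col4a3* and *Col4a4* had 27 and 11 counts in all. As a share of the summed collagen level per kb, type IV genes held 3.74% in WT cells with vehicle and 6.58% in Y428F cells with vehicle, and type VI genes held 9.28% and 7.33%. That sum was itself lower in Y428F cells, at 3221 against 4819 CPM per kb. Type IV genes stood at 180.5 ± 17.03 CPM per kb in WT cells and 211.8 ± 6.304 in Y428F cells, both with vehicle. Type VI genes stood at 448.0 ± 57.43 and 235.9 ± 10.25 in the same groups.

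*Col7a1* (ENSMUSG00000025650.14, chr9:108782647-108813943, + strand), the chain of the anchoring fibrils that tie basement membrane to stroma, was at 2.96, 1.42 and 1.18 CPM in WT cells with vehicle and at 8.76, 7.08 and 8.25 CPM in Y428F cells with vehicle. It was 4.29-fold higher (log2 difference 2.10 ± 0.23, adjusted p = 1.59e-07), without overlap. *Col8a1* (ENSMUSG00000068196.6, chr16:57444621-57575100, - strand), a short-chain collagen that forms hexagonal networks, was at 104, 115 and 109 CPM in WT cells with vehicle and at 167, 148 and 152 CPM in Y428F cells with vehicle. Its difference was 0.51 ± 0.06 (adjusted p = 3.06e-07). *Col12a1* and *Col16a1*, both FACIT genes, moved in opposite directions, by 1.08 ± 0.10 and -0.56 ± 0.09 (adjusted p = 1.45e-08 and 4.91e-05).

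*Col18a1*, whose C-terminal fragment is endostatin, differed by 1.13 ± 0.17 (adjusted p = 1.67e-05). It shares 896 exon bases with *Slc19a1* on the opposite strand, which had 6488 counts against 1212 for *Col18a1* and was itself higher by 0.63 in Y428F cells, and since the strand of the libraries is not settled the *Col18a1* value is uncertain. *Col10a1*, a short-chain collagen of hypertrophic cartilage, differed by -1.17 ± 0.23 (adjusted p = 0.000283) and likewise shares 651 exon bases with *Nt5dc1*, whose difference was 0.03. *Col17a1*, a transmembrane collagen of epithelia, was lower at -0.98 ± 0.36 (adjusted p = 0.0297, and 0.151 without WT vehicle replicate 3), and *Col20a1*, which shares exon bases with a lncRNA, was at -0.71 ± 0.29 (adjusted p = 0.0511). Among genes under 1 CPM, *Col15a1* was called higher on 0 to 5 counts in a WT vehicle library against 11 to 14 in a Y428F vehicle library, and *Col9a2* on 0 against 1 to 4 (a call lost when any 1 of 5 libraries was left out), where no fold is given because the counts lie near 3 counts in a library.

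Markers of other cell types that carry collagens were read beside these differences. The 7 endothelial markers summed to 1.59, 0.910 and 1.77 CPM in WT cells with vehicle and to 7.94, 8.85 and 9.99 CPM in Y428F cells with vehicle, with *Cdh5* the most abundant, at 0.810 and 7.95 CPM on average, and *Tek* at 0.540 and 0.623 CPM, while *Pecam1*, *Kdr*, *Tie1* and *Emcn* each stayed under 0.25 CPM on average and *Cldn5* had no count. Of 8 chondrocyte markers, *Acan*, *Matn1* and *Snorc* had no count, and *Sox9* fell from 55.2 to 18.5 CPM (log2 difference -1.58 ± 0.10, adjusted p = 5.64e-11). The 8 hematopoietic markers summed to at most 4.74 CPM in a library, with *Ptprc* the most abundant, at 0.853 CPM in WT cells with vehicle and 2.79 CPM in Y428F cells with vehicle, and with no count of *Cd3e*. The 6 skeletal muscle markers summed to at most 10.5 CPM in a library, mostly *Des*, and *Myod1* and *Myog* had no count. Of 7 adipocyte markers, *Pparg* and *Fabp4* exceeded 1 CPM, *Adipoq* and *Cfd* had no count, *Fabp4* fell from 26.9 to 6.57 CPM, and *Pparg* was higher by 0.33 ± 0.07 (adjusted p = 0.000835). The stroma markers moved with the line as well. Of the 10 tested, 7 were lower in Y428F cells with vehicle and 2 were higher, against 30.9% and 28.7% of all genes averaging 1 CPM or more. The lower genes include *Pdgfra* at -1.59 ± 0.09, *Pdgfrb* at -1.51 ± 0.09, *Eng* at -0.75 ± 0.06 and *Cxcl12* at -0.54 ± 0.05. The 2 higher were *Ly6a* at 1.23 ± 0.06 and *Lepr*. *Lepr* was at 0.264, 0.0569 and 0.107 CPM in WT cells with vehicle and at 1.04, 1.06 and 0.983 CPM in Y428F cells with vehicle (adjusted p = 0.000244). Of 6 tested osteoblast markers, *Runx2* was lower at -0.30 ± 0.07 and *Phex* higher at 1.44 ± 0.30 (adjusted p = 0.000919 and 0.000487). Apart from *Cdh5*, *Sox9*, *Ptprc* and *Des*, every marker of endothelium, cartilage, blood and muscle was under 1 CPM in all 4 group means, and the part of these cells in the collagen differences was not tested.

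With PTH, 6 of the 38 tested collagen genes were higher in Y428F than in WT cells and 19 were lower, against 22.8% and 23.0% of all genes tested and 45.7% in either direction. The 2 line comparisons share no library, but they compare the same 2 lines in 1 fit. A difference found in both is therefore not a repeat in independent lines. *Col11a1* was at 2.54, 2.09 and 2.795 CPM in WT cells with PTH and at 54.7, 62.0 and 56.6 CPM in Y428F cells with PTH, and the difference was 4.54 ± 0.12 (adjusted p = 8.27e-17). *Col3a1*, at 832, 853 and 819 CPM in WT cells with PTH and 138, 179.7 and 174 CPM in Y428F cells with PTH, differed by -2.35 ± 0.11 (adjusted p = 2.47e-13). The type I genes differed by -0.66 ± 0.09 (*Col1a1*) and -0.96 ± 0.08 (*Col1a2*), with adjusted p = 5.74e-06 and 2.02e-09.

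*Col5a3* and *Col6a3* were again lower, at -2.66 ± 0.09 and -1.79 ± 0.13, and *Col7a1* and *Col12a1* again higher, at 2.20 ± 0.23 and 1.09 ± 0.10. *Col27a1* was again lower, at -4.47 ± 0.34. That value rests on 2, 4 and 3 counts in the Y428F PTH libraries, near the floor of 3 counts, so its size is uncertain. The WT PTH libraries had 64, 61 and 69 counts. *Col4a1* and *Col4a2* had differences of 0.16 ± 0.09 and 0.06 ± 0.09 (adjusted p = 0.1596 and 0.650), and did not pass the test with PTH, although *Col4a1* passed it with library totals in place of TMM (0.23, adjusted p = 0.0316), with a transcript length correction (0.24, 0.0034), with no filter on low counts (0.16, 0.0264) and without Y428F PTH replicate 1 (0.24, 0.0258). *Col5a2*, *Col4a5*, *Col4a6*, *Col6a4* and *Col20a1* passed it with PTH and not with vehicle, all lower, from -0.16 to -1.31, and *Col5a2* and *Col4a5* lost the call when library totals replaced TMM (adjusted p = 0.102 and 0.183). Whether a gene's line difference itself changed with PTH is the test of the difference in response given further on.

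The next comparison asked what 2 hours of PTH changed in WT cells. No collagen gene passed the test of edgeR among the 38, against 13.4% of all genes tested. At an unadjusted p under 0.05 there were 2, *Col27a1* and *Col9a3*, where the background was 25.3%, and DESeq2 called 0, with 1 at an unadjusted p under 0.05. *Col1a1* was at 6977, 7343 and 6179 CPM with PTH, within a spread that overlapped the vehicle libraries, and its log2 difference was -0.04 ± 0.09, with a 95% interval from -0.24 to 0.15. *Col1a2*, at 13130, 13540 and 11780 CPM with PTH, had a difference of -0.0016 ± 0.08, with an interval from -0.16 to 0.16. *Col3a1* had -0.0026 ± 0.10, with an interval from -0.21 to 0.20. For these abundant chains the intervals leave out a change of more than about 0.24 in either direction on the log2 scale. The 26 genes with at least 1 CPM ranged from -0.51 (*Col6a5*) to 0.26 (*Col6a4*), with a median of -0.02, and these extremes belong to genes of few counts. The median of the 38 tested collagen genes was -0.007, against -0.02 for all genes tested.

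In Y428F cells 2 of the 38 genes passed the test for PTH, *Col1a1* lower and *Col8a1* higher, against 12.4% of all genes tested in either direction, 5.78% lower and 6.61% higher. *Col1a1* was at 5784, 5300 and 5282 CPM with vehicle and at 3617, 4854 and 4548 CPM with PTH, without overlap, and fell by 0.33 ± 0.09 on the log2 scale (adjusted p = 0.0218). *Col8a1* was at 167, 148 and 152 CPM with vehicle and at 176, 184 and 172 CPM with PTH, a rise of 0.19 ± 0.06 (adjusted p = 0.0361). That call was lost when any 1 of 5 of the 6 Y428F libraries was left out (adjusted p = 0.0516 to 0.177) and with library totals in place of TMM (0.0936). *Col1a2*, at 8068, 7534 and 7632 CPM with vehicle and 5787, 7202 and 6802 CPM with PTH, differed by -0.23 ± 0.08 (adjusted p = 0.0531). *Col6a1* and *Col3a1* had -0.24 ± 0.08 and -0.31 ± 0.10 (adjusted p = 0.0502 and 0.0542). Thus 3 abundant chains lay just outside the threshold that *Col1a1* passed.

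Of the 26 genes with at least 1 CPM, 21 had a negative difference with PTH in Y428F cells, and their median was -0.20. The median of the 38 tested collagen genes was -0.22, against -0.01 for all genes tested. At an unadjusted p under 0.05 there were 12 of 38, where the background was 24.4%, and DESeq2 called 4. The libraries of the 2 exposures did not overlap for 10 genes lower and 1 gene higher, against 15.4% and 15.5% of all genes tested. Of the cell type markers, *Pparg* was higher with PTH in Y428F cells by 0.71 ± 0.07, *Vim* was higher by 0.22 ± 0.06 and *Pdgfra* was lower at -0.73 ± 0.11 (adjusted p = 9.62e-07, 0.0128 and 7.17e-05), and in WT cells the same markers had 0.51, 0.27 and -0.60. Their part in the collagen values was not tested. Collagen genes of 1 library tended to lie at the same end of their group. Of the 17 genes with at least 10 CPM, Y428F PTH replicate 1 was the lowest of its group for 16 and Y428F PTH replicate 2 the highest for 16, and Y428F vehicle replicate 1 was the highest of its group for 16. Among the WT libraries, vehicle replicate 1 was the lowest of its group for 14 and vehicle replicate 3 the highest for 11, and PTH replicate 3 was the lowest for 15 and PTH replicate 2 the highest for 14. Without Y428F PTH replicate 1, no collagen gene was called in either direction and *Col1a1* had -0.21 (adjusted p = 0.124). Without Y428F vehicle replicate 1, *Col1a1* had -0.28 (adjusted p = 0.115) and no gene was called lower.

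**Figure D4:**
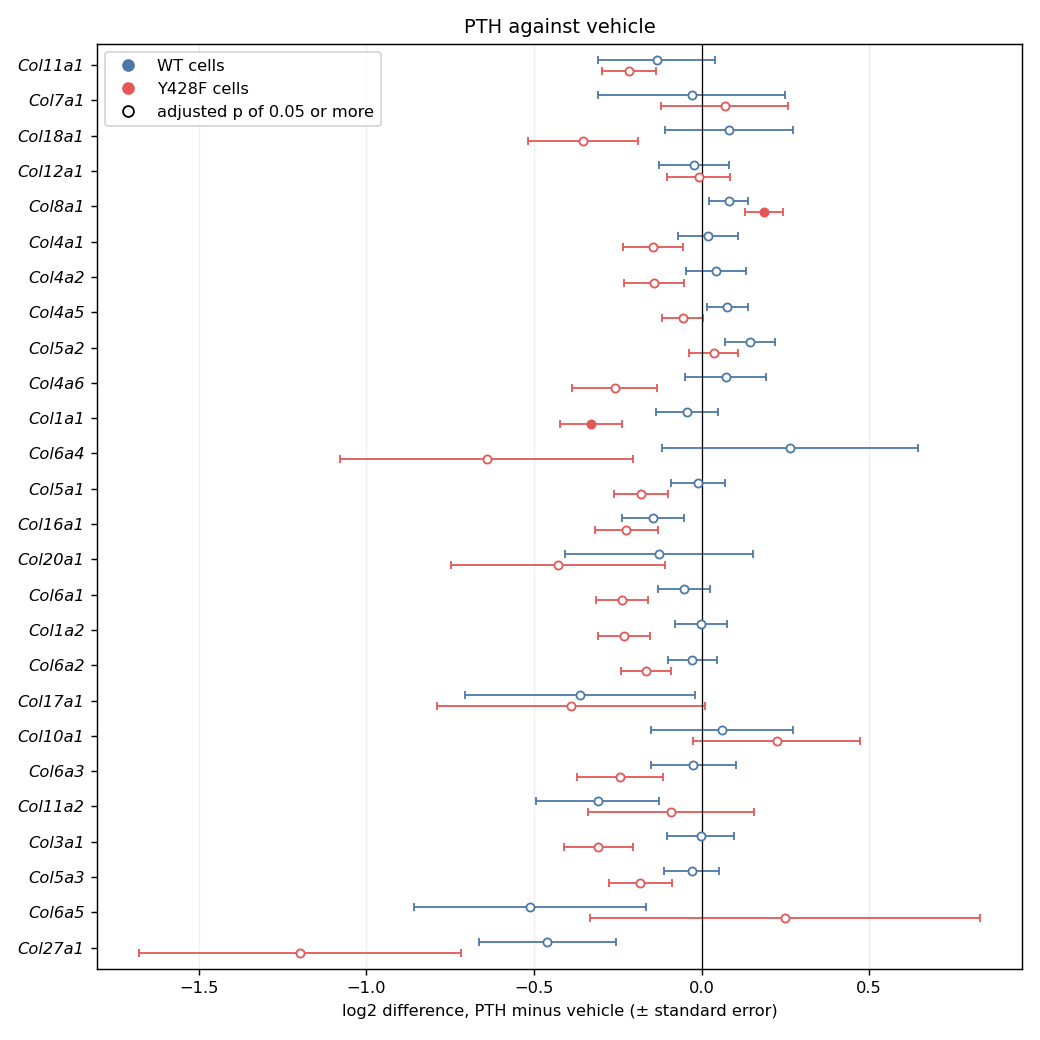
Log2 difference between PTH and vehicle (x axis, ± standard error from edgeR, 3 libraries in each group) for the 26 collagen genes averaging 1 CPM or more, in WT cells (blue) and Y428F cells (red), with open points where the adjusted p was 0.05 or more. The filled points are *Col1a1* at -0.33 and *Col8a1* at 0.19, both in Y428F cells, and 21 of the 26 red points lie left of 0.

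The difference in PTH response between the lines was tested as an interaction. No collagen gene passed (edgeR), against 0.413% of all genes tested, which is 73 genes. At an unadjusted p under 0.05 there were 3, *Col1a1*, *Col1a2* and *Col3a1*, where the background was 7.05%, and DESeq2 called 0, with 2 at an unadjusted p under 0.05. The *Col1a1* response was lower in Y428F than in WT cells by 0.29 ± 0.13, a difference of -0.29 with a 95% interval from -0.56 to -0.01 (adjusted p = 0.677). For *Col8a1* it was 0.11 ± 0.08, with an interval from -0.06 to 0.28 (adjusted p = 0.872). The difference in response was negative for 31 of the 38 genes and for 20 of the 26 with at least 1 CPM, and the median of the 38 was -0.20 against 0.0017 for all genes tested. No single collagen gene is thus shown to respond differently in the lines.

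The genes that build, process, link and read collagen were listed by their function, 51 in all, of which 45 were tested. With vehicle, 8 were higher in Y428F cells and 26 were lower, a share of 75.6% called against 45.1% of all genes tested. Among genes averaging 1 CPM or more it was 33 of 43, or 76.7%, against 59.6% of all such genes, and the median log2 difference of the 45 was -0.36 against 0.01 for all genes tested. By direction, 28.7% of all genes averaging 1 CPM or more were higher and 30.9% were lower. Of the 14 tested genes of hydroxylation and glycosylation, 3 were higher (*P4ha1*, *P4ha2* and *Plod2*) and 9 were lower. The lower genes include *P3h1*, *Crtap* and *Ppib*, the 3 subunits of the complex that modifies a single proline of the type I chains. *P3h3*, which acts with *Plod1* in lysine hydroxylation of the helix, fell from 16.0 to 2.72 CPM, with a difference of -2.55 ± 0.14 (adjusted p = 4.95e-12). Of the 11 folding and export genes, 7 were lower and none was higher, against 30.9% and 28.7% of genes averaging 1 CPM or more. The 7 include *Creb3l1*, a transcription factor of the secretory pathway in osteoblasts, at -1.12 ± 0.07. The chaperone gene *Serpinh1* (HSP47) was at 2134 CPM in WT cells and 2180 CPM in Y428F cells.

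Of the 6 tested genes of propeptide processing, 4 were lower and none was higher, against 22.7% of all genes tested that were lower, or 30.9% of those averaging 1 CPM or more. *Adamts2*, which cleaves the N-propeptide of types I and III, fell from 216 to 39.8 CPM, a difference of -2.44 ± 0.09 (adjusted p = 1.58e-14). The lysyl oxidases, which crosslink fibers, split within the family. *Loxl2* was at 3.55 CPM in WT cells with vehicle and 19.0 CPM in Y428F cells with vehicle, and *Loxl2*, *Loxl4* and *Lox* were higher by 2.42 ± 0.13, 1.65 ± 0.06 and 1.00 ± 0.07 (adjusted p = 6.88e-12, 9.15e-15 and 6.35e-10), while *Loxl1* and *Loxl3* were lower at -1.18 ± 0.06 and -1.12 ± 0.07. Among the receptors, *Itga10*, which pairs with *Itgb1* to bind collagen on chondrocytes, fell from 30.1 to 3.08 CPM, a difference of -3.28 ± 0.16 (adjusted p = 8.87e-13). *Mrc2*, which takes up collagen fragments for degradation, fell from 987 to 450.4 CPM.

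**Figure D5:**
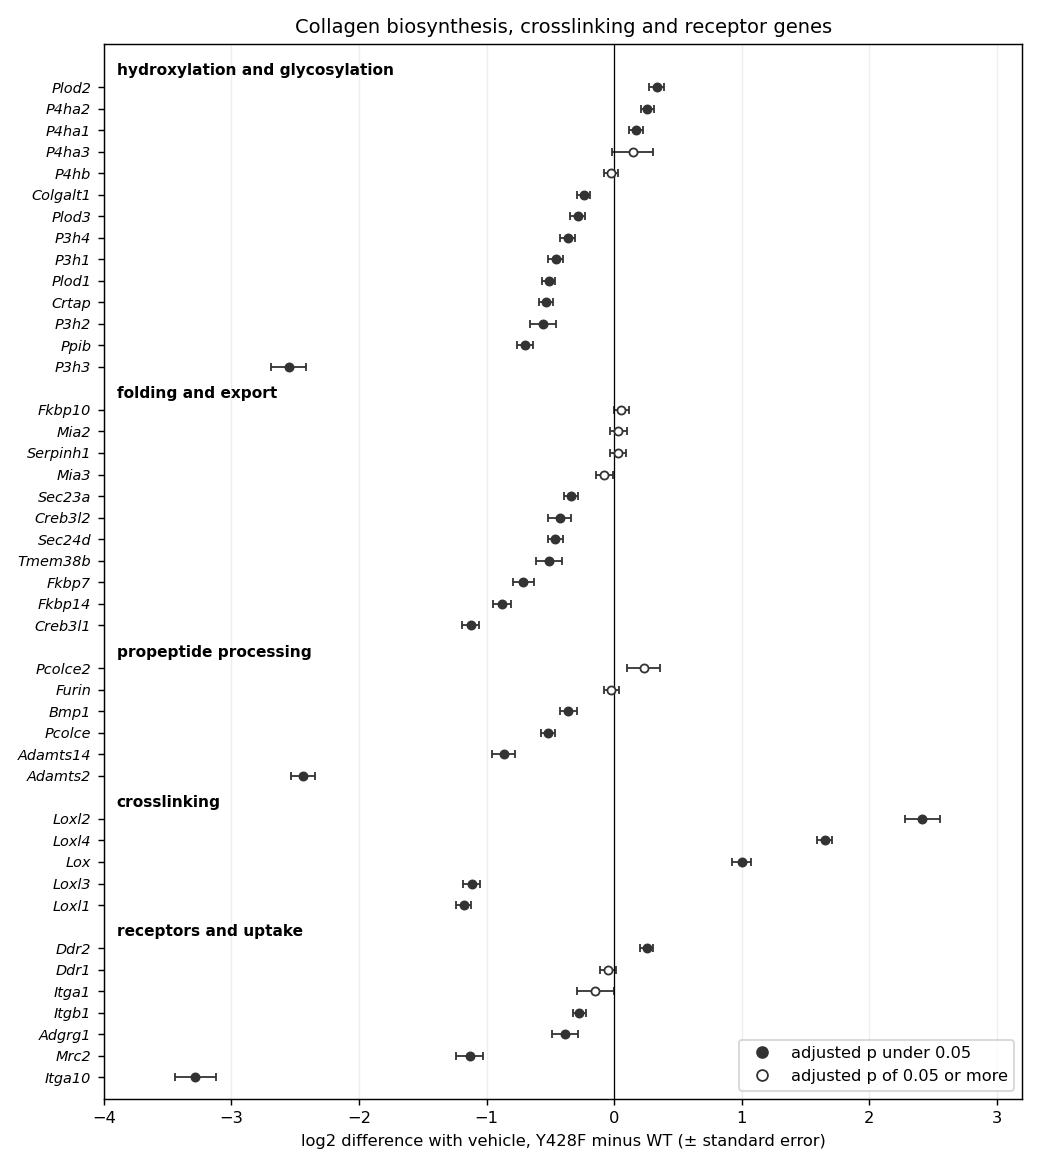
Log2 difference between Y428F and WT cells with vehicle (x axis, ± standard error from edgeR, 3 libraries in each group) for the 43 genes of collagen biosynthesis, crosslinking and reception with a group mean of at least 1 CPM, in 5 functional groups, with open points where the adjusted p was 0.05 or more. Points lie mostly left of 0, and the crosslinking group has 3 genes on the right and 2 on the left.

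PTH changed 7 of these 45 genes in WT cells, a share of 15.6% against 13.4% of all genes tested and, among genes averaging 1 CPM or more, 16.3% against 19.3%. Those higher were *Sec24d* and *Sec23a*, coat proteins of the vesicles that carry procollagen out of the endoplasmic reticulum, at 0.46 ± 0.06 and 0.23 ± 0.05, the crosslinking genes *Loxl2* (0.59 ± 0.16) and *Lox* (0.24 ± 0.07), and the receptor genes *Ddr2* (0.17 ± 0.05) and *Itgb1* (0.18 ± 0.05). *Creb3l2*, a transcription factor that drives secretory genes in cartilage, was lower at -0.30 ± 0.09 (adjusted p = 0.0291). Of these 7, *Sec24d* kept the call under every alternative run and *Sec23a* under all but the stricter limit of an adjusted p under 0.01 with a log2 change beyond 0.3, and the other calls were each lost without at least 1 library. PTH thus changed genes around collagen in WT cells at a rate near that of all genes, in libraries where no collagen gene passed.

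In Y428F cells PTH changed 6 of the 45, a share of 13.3% against 12.4% of all genes tested and, among genes averaging 1 CPM or more, 6 of 43 against 17.9%. *Sec24d* (0.195 ± 0.06) and *Loxl4* (0.40 ± 0.06) were higher. *Creb3l2* (-0.38 ± 0.09), *Adamts14* (-0.44 ± 0.10), *Bmp1*, the C-propeptide protease (-0.24 ± 0.07), and *Mrc2* (-0.34 ± 0.10) were lower, with adjusted p = 0.00797, 0.00418, 0.0230 and 0.0334. Y428F PTH replicate 1 was the lowest of its group for each of these lower genes. With single libraries left out, *Mrc2* ran from -0.41 to -0.24, *Bmp1* from -0.28 to -0.17 and *Creb3l2* from -0.46 to -0.27. *Adamts14* ran from -0.50 to -0.35, *Loxl4* from 0.365 to 0.43 and *Sec24d* from 0.17 to 0.23. Not all of the 6 calls held when each library was left out in turn. None of the 45 genes passed the test of the difference in response between the lines (edgeR), against 0.413% of all genes tested, and 4 had an unadjusted p under 0.05, where the background was 7.05%.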

How the data were processed

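RNA was isolated with the RNeasy Mini Kit and made into poly(A)-selected libraries, for which the labels allow either a directional or a non-directional protocol. The authors mapped reads with STAR 2.7.10b to GRCm39 and deposited RSEM expected counts per gene for all 12 libraries, which are not normalized. Of the values, 6.32% were not whole, and they were rounded. Gene symbols and positions came from GENCODE vM39, which matched 56236 identifiers and left 744 unmatched. The 17691 genes with at least 10 counts summed over the 12 libraries were tested with edgeR 4.0.16 (R 4.3.3), using TMM and quasi-likelihood tests, with p-values adjusted over the whole table by Benjamini-Hochberg and calls at an adjusted p under 0.05. The 12 libraries entered 1 fit of 4 groups, so that all values set side by side come from the same fit. Standard errors and 95% intervals came from that fit. CPM used TMM library sizes. No count model gave the collagen share or the order of levels.

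Alternatives were DESeq2 1.42.0, a scaling by its size factors or by library totals, stricter and looser count filters, a replicate block, a transcript length correction, fits of 1 line alone, a stricter limit and each library left out. The fit was also run on simulated data, for which no outcome is given, and no result here rests on that run. Counting error is the least error of any value, and 3 counts in a library were taken as the floor.

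The collagen genes and the lists of classes, collagen-related genes and cell type markers were chosen with earlier results of these data known. Named with every library were *Col1a1*, *Col1a2* and *Col3a1*, collagen genes called for PTH, and the 8 with the largest called line difference with vehicle among those of at least 1 CPM. Collagen-related genes were named where called for PTH or, of those with at least 1 CPM, among the 3 largest line differences in each direction. *Col4a1* was also given with every library, and other genes were named for their class, position or marker role after their values were seen.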

Additional observations from a re-analysis of the deposited data

How the results depend on the processing

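The called line differences of collagen genes kept their direction under every alternative that gave a value. Between the lines, the settings other than a left-out library gave 7 to 9 higher and 12 to 15 lower with vehicle and 5 to 7 higher and 14 to 19 lower with PTH, where *Col4a5* and *Col5a2* were lost and *Col4a1* gained with library totals, *Col15a1* and *Col17a1* were lost with DESeq2, and *Col17a1* and *Col4a5* were lost and *Col4a1* gained with the length correction. The stricter limit left out 20 of 63 single calls, which are those of collagen genes and, for the response to PTH, of collagen-related genes. Of the counts of calls, those for PTH in Y428F cells moved by over 1.5 times. Against 1 higher and 1 lower, library totals in place of TMM gave 0 higher and 5 lower, DESeq2 gave 3 lower, no filter on low counts gave 7 lower, at least 10 counts in every library gave 4 lower, a correction for transcript length gave 5 lower, the 6 Y428F libraries alone gave 5 lower, and an adjusted p under 0.01 with a log2 change beyond 0.3 gave 0 and 0. With the replicate number as a block, 4 were lower. The numbers do not pair the libraries, since same-numbered libraries correlated by 0.03 on average over 18 pairs (-0.15 to 0.27), and among collagen genes the block added *Col1a2*, *Col3a1* and *Col6a1* to those lower with PTH in Y428F cells (adjusted p = 0.0319, 0.0154 and 0.0275) and *Col20a1* to those lower between the lines with vehicle (0.0342), and *Col15a1* lost its call between the lines with PTH (0.0632). Leaving out each library gave 0 to 1 higher and 0 to 6 lower in Y428F cells, and 0 to 1 in each direction in WT cells. It gave 7 to 9 higher and 13 to 16 lower between the lines with vehicle, 5 to 6 and 14 to 19 with PTH, and 0 for the difference in response. Between the lines with vehicle, the calls lost without 1 library were *Col4a2* (for 4 of the libraries, each left out alone), *Col17a1* (4) and *Col9a2* (5). With PTH they were *Col15a1* (9), *Col17a1*, *Col4a5* and *Col5a2* (4 each), *Col6a4* (3) and *Col20a1* (2). Calls gained between the lines were *Col20a1* (4) and *Col4a6* (1) with vehicle, both lower, and *Col4a1* (1) with PTH, higher. In WT cells with PTH the calls gained were *Col16a1* lower and *Col5a2* higher. The cause was not tested.

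Without *Col1a2*, the collagen share was 1.49% and 1.43% in WT cells with vehicle and PTH and 1.15% and 0.959% in Y428F cells. *Col1a2* held 49.7%, 50.0%, 44.9% and 44.8% of the collagen sum per kb in the same order of groups, and 46.2%, 46.3%, 41.2% and 40.9% of the sum in CPM. Leaving out each library put the mean collagen share at 2.68% to 2.88%, 2.59% to 2.74%, 1.91% to 1.97% and 1.54% to 1.73%.

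Depth limits the 12 tested genes under 1 CPM, for which most intervals span more than a 2-fold change. A scaling other than TMM moved the median of all genes by at most 0.07.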

Other observations

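The median difference between the lines varied by chromosome, among genes with at least 4 CPM. On chromosome 9, which holds *Col5a3*, *Col12a1*, *Col7a1*, *Col6a4* and *Col6a5*, the median log2 difference with vehicle was -0.24 and 76.9% of 589 genes were lower in Y428F cells. On chromosome 10, with *Col6a1* and *Col6a2*, it was 0.25, and on chromosome 6, with *Col1a2*, it was -0.17. After the median of the chromosome was subtracted, *Col5a3* stood at -2.27, *Col12a1* at 1.32, *Col6a1* at -0.97, *Col1a2* at -0.56 and *Col1a1* (chromosome 11) at -0.55, and of the 48 called line differences treated in this way none changed its direction and 11 moved by more than the spread between replicates. The type I genes, whose differences with vehicle were -0.73 for *Col1a2* and -0.37 for *Col1a1* before that step, then had nearly the same value.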
